A study of Mus musculus with 14 samples.

Results

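The genes described are the 2 mouse genes of the histone variant H3.3, H3f3a and H3f3b, and 8 genes for chaperones that carry or deposit histone H3: Hira, Ubn1, Daxx, Atrx, Chaf1a, Chaf1b, Asf1a and Asf1b. They were chosen by symbol, with no cut on measured values, though earlier results of these data were known. They are 10 of 22490 gene symbols in the deposited expression table. All 10 passed the filter on low values and were tested among 13451 genes. RNA was sequenced from mouse embryos that came either from in vitro fertilisation (IVF) or from nuclear transfer (SCNT, which puts a body cell nucleus in place of that of an oocyte), and from the donor cumulus cells, the somatic cells that surround the oocyte.

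The 14 libraries formed 7 groups of 2. Donor libraries came from about 1000 pooled cumulus cells each, of (C57BL/6J x CAST/EiJ) F1 strain by the strain label. IVF embryos, from a C57BL/6J oocyte and CAST/EiJ sperm, were pooled as 32 and 31 at the 1-cell stage and as 25 and 25 at the 2-cell stage. SCNT embryos, with nuclei from these F1 donors in B6D2F1 oocytes, were pooled as 36 and 36 at the 1-cell stage and 40 and 40 at the 2-cell stage. A further pair of 2-cell SCNT groups overexpressed either Kdm4d, an enzyme that removes methyl groups from lysine 9 of H3, or a mutant of it, with 25 embryos in each library. Which mutation it was, and how the gene was overexpressed, is not given here. By the protocol, cumulus cells were taken from BDF1 females, which does not match the strain label. IVF and SCNT embryos differ in oocyte strain as well as in how they were made, so effects of the 2 cannot be told apart. SCNT nuclei came from female donors, whereas IVF embryos can be of either sex, and effects of sex cannot be told apart either. The females that gave the cumulus cells are described as adult, with no age given.

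Histone H3.3 is made outside as well as inside S phase, and H3f3a and H3f3b encode the same protein. The HIRA complex, with its partner UBN1, places H3.3 in active genes and in regions that have lost nucleosomes, and it is known for loading maternal H3.3 onto the sperm-derived chromatin of the fertilised egg. DAXX and ATRX place H3.3 at telomeres and repeated DNA. CAF-1 (CHAF1A and CHAF1B are its large and middle subunits) places the replication-coupled forms of H3 on new DNA. ASF1A and ASF1B hand H3-H4 pairs to the HIRA complex and to CAF-1.

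Promoter sequences are shown for the 2 H3.3 genes, which give the same protein from unlike promoters, and for Chaf1b and Asf1b, which moved in opposite ways from the 1-cell to the 2-cell stage. Each is the 250 bases before the RefSeq start site, read 5′ to 3′ on the gene's strand, and all 10 genes had an entry in the RefSeq table of build GRCm38.p6. Capitals mark exact matches on either strand to the CCAAT box, to the GC box GGGCGG, to 2 E2F motifs (TTTCCCGC and also TTTGGCGC), to the CRE motif TGACGTCA with its shorter form TGACGT that lies inside it, or to the TATA box TATAAA. Neighbouring GC boxes can overlap. On the other strand CCAAT reads ATTGG, and the GC box reads CCGCCC.
H3f3a: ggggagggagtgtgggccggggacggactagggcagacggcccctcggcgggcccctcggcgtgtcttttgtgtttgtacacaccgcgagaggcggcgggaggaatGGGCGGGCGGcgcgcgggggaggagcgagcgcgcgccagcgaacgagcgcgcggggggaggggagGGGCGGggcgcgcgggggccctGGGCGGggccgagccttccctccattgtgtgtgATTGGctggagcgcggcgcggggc
H3f3b: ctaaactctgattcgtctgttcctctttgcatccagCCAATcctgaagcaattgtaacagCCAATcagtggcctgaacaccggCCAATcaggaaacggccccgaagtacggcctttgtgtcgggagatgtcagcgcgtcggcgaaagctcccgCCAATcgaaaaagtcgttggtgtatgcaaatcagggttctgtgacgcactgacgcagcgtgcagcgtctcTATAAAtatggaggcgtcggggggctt
Chaf1b: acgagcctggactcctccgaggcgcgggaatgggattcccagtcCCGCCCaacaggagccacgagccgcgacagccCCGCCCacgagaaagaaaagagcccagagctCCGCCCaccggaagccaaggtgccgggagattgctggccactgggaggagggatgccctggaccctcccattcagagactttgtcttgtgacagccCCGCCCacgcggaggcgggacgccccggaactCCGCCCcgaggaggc
Asf1b: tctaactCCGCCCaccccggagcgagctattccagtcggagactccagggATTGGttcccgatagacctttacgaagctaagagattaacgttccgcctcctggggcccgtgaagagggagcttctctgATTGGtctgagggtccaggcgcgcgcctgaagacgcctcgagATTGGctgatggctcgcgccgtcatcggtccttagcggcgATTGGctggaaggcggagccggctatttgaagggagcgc
These lie at chr1:180813606-180813855 (minus strand), chr11:116024505-116024754 (minus), chr16:93883651-93883900 (plus) and chr8:83955444-83955693 (plus). The H3f3a window held 77.2% G and C, with 35 CG pairs, 4 GGGCGG matches and 1 CCAAT. The H3f3b window held 54.0% G and C, with 19 CG pairs, 4 CCAAT matches and a TATAAA from 27 to 22 bases before the start. Chaf1b had 5 GGGCGG matches and no CCAAT, and Asf1b had 4 CCAAT and 1 GGGCGG match. The CCAAT box was present in 34.464% of 27025 promoter windows of this length (1 per gene), GGGCGG in 32.936%, and TATAAA in 12.966%. The CRE motif was in 1.624% of windows and its shorter form in 6.561%. The E2F motifs TTTCCCGC and TTTGGCGC, present in 0.929% and 0.437% of windows, were not among the letters of any of the 10 genes' windows. Only these 2 exact E2F forms were searched for, so other forms of the site could be present. A match is a description of letters and does not show that a factor binds. The median window held 52.0% G and C.

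Levels are FPKM, fragments scaled to transcript length and to library size, so they can be compared between genes. Read counts are not given. Depth was only estimated, relative to the deepest library, from the commonest ratio of low FPKM values between libraries. The estimates were 0.409 to 0.518 for the Kdm4d and mutant libraries, 0.578 for both donor libraries and 0.785 or more for the others. The sums of FPKM ran from 182646 in an SCNT 2-cell library to 345126 in an IVF 1-cell library, so each result was repeated with equal sums (TPM) and with quantile normalization. Replicates differed least in IVF 1-cell embryos (a typical SD of 0.0925 in log2) and most in mutant Kdm4d embryos (0.371). Kdm4d itself stood at 8879 and 2255 FPKM in the Kdm4d libraries, 723 and 283 in the mutant libraries, and at most 0.759 in the other 10, so both overexpression labels were borne out, at unequal levels. Of 16 cumulus and granulosa markers, 13 reached 1 FPKM in donor cells. Amh, Cyp19a1 and Areg did not. All 12 oocyte markers reached 1 FPKM in each embryo group and none in donor cells.

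**Figure D1:**
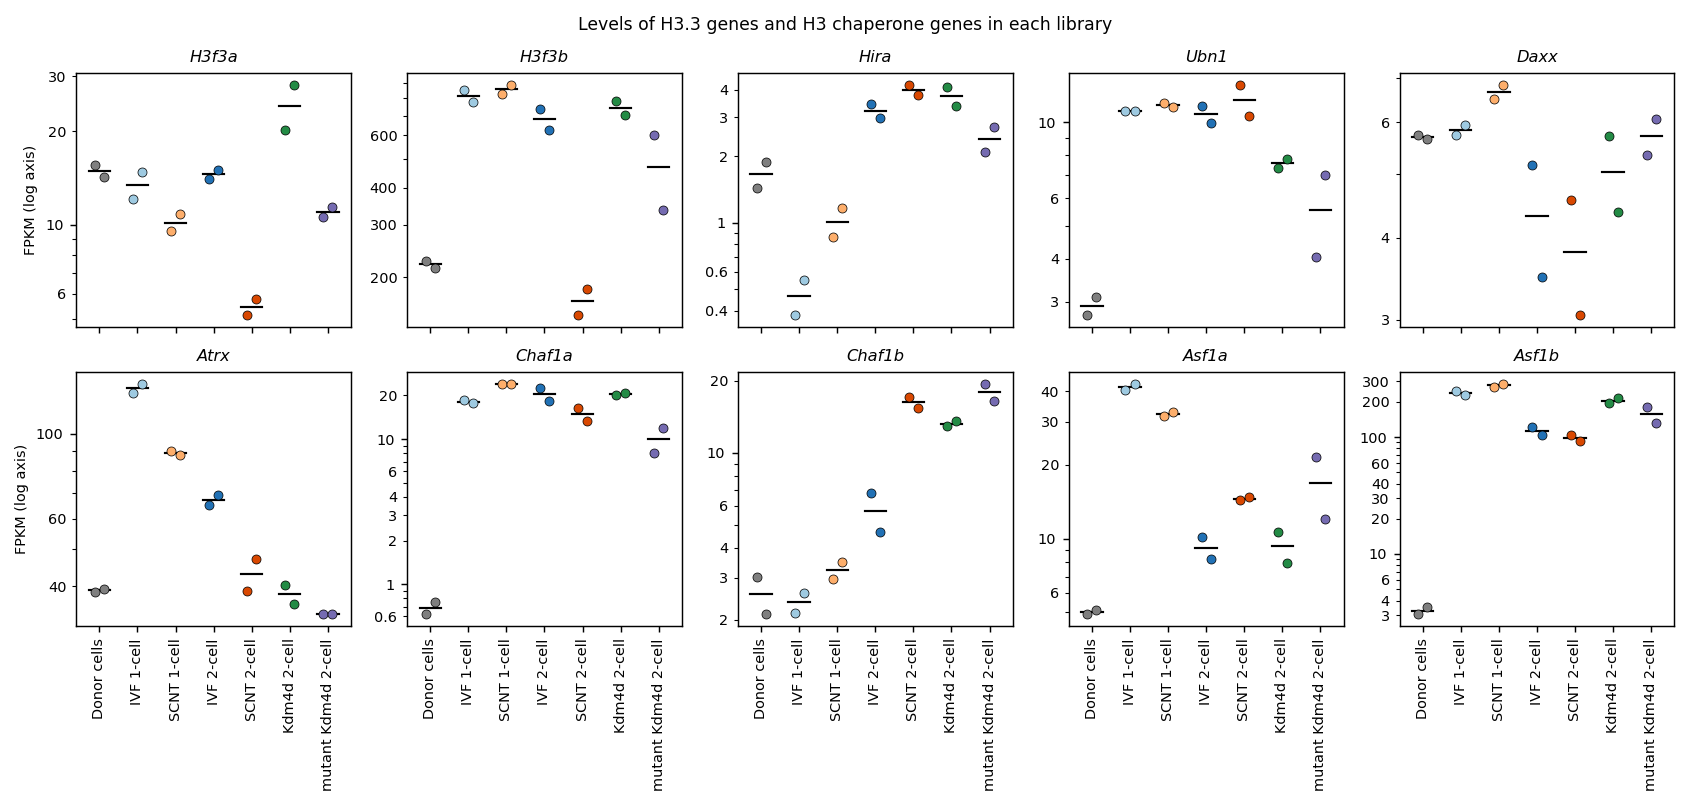
Levels in each library (FPKM, log axis, 1 panel per gene, each with its own range), with the 7 groups on the horizontal axis. Points are single libraries and bars the mean of 2. On this scale H3f3a and H3f3b are lowest in SCNT 2-cell embryos, at group means of 5.46 and 166 FPKM, and Chaf1a and Asf1b are lowest in donor cells. With equal sums H3f3b is lowest in donor cells (mean 854 TPM, against 900 in SCNT 2-cell embryos).

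H3.3 genes were lower in SCNT than in IVF embryos at the 2-cell stage, and higher again with overexpressed Kdm4d. The test was a moderated linear model (limma) on log2(FPKM + 1) across all tested genes, with p-values adjusted by Benjamini and Hochberg within a comparison and a gene called at an adjusted p under 0.05. The spread is that between pools. Nothing says the replicates were separate experiments, so p-values measure only the spread between these libraries. All 7 groups share 1 estimate of spread per gene, although the typical replicate SD ran from 0.0925 (IVF 1-cell) to 0.371 (mutant). Fits to the groups compared only called none of the 10 genes for mutant against SCNT or Kdm4d against mutant. Kdm4d against IVF 2-cell embryos gave none either. In pooled embryos, fewer embryos or cells that hold a gene's RNA and less of that RNA in each cannot be told apart.

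H3f3b (mm9, chr11:115883275-115885818) supplied nearly all of the H3.3 messenger RNA. Its level was 854 and 777 FPKM in IVF 1-cell libraries, 826 and 889 in SCNT 1-cell, 736 and 627 in IVF 2-cell, and 149 and 183 in SCNT 2-cell. Kdm4d libraries had 781 and 705 FPKM, mutant libraries 604 and 336, and donor cells 227 and 214. On FPKM the SCNT 2-cell libraries were the lowest of all and close to donor cells, and they did not overlap the other embryo groups. With equal sums the SCNT 2-cell libraries overlapped donor cells (797 and 1002 against 846 and 861 TPM). The log2 difference from IVF 2-cell embryos was -2.03 ± 0.23 (SE, n = 2 libraries a group, adjusted p = 3.69e-05, limma), a 4.11-fold ratio of mean FPKM. It was called under each of the 11 alternatives run, at -2.18 to -1.55.

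With Kdm4d, H3f3b was higher than in plain SCNT 2-cell embryos by 2.16 ± 0.23 on the log2 scale (adjusted p = 4.02e-05), and by 1.44 ± 0.23 with the mutant (adjusted p = 0.00294). In a fit to the groups compared only, the first call was kept (adjusted p = 0.00629) and the mutant's was lost (adjusted p = 0.167). The Kdm4d libraries overlapped those of IVF 2-cell embryos, with a difference of 0.13 (95% interval -0.38 to 0.63, adjusted p = 0.759). Kdm4d exceeded the mutant by 0.72 ± 0.23 (adjusted p = 0.0251), but the 2 mutant libraries differed widely, and without mutant replicate 2 this was 0.30 (adjusted p = 0.147). Leaving out Kdm4d replicate 1 or 2 also ended the call (0.65, adjusted p = 0.0875, and 0.79, adjusted p = 0.0577). The mutant also fell short of IVF 2-cell embryos by -0.59 ± 0.23 (adjusted p = 0.0463); without mutant replicate 2 it was -0.17 (adjusted p = 0.39), and the call was also lost without either IVF 2-cell library (-0.48, adjusted p = 0.218, and -0.71, adjusted p = 0.077). These comparisons share libraries: the SCNT 2-cell libraries enter both the difference from IVF and that from Kdm4d.

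H3f3a (chr1:182732699-182743734) followed at a far lower level. It had 12.1 and 14.8 FPKM in IVF 1-cell libraries, 9.55 and 10.8 in SCNT 1-cell, 14.1 and 15.0 in IVF 2-cell, and 5.13 and 5.78 in SCNT 2-cell. Kdm4d libraries had 20.1 and 28.2 FPKM, mutant libraries 10.6 and 11.4, and donor cells 15.5 and 14.2. Again the SCNT 2-cell libraries were the lowest on FPKM, here with no overlap with donor cells, while the Kdm4d libraries were the highest of all. With equal sums the SCNT 2-cell libraries overlapped SCNT 1-cell libraries (27.4 and 31.7 against 30.3 and 33.6 TPM). The log2 difference of SCNT from IVF 2-cell embryos was -1.27 ± 0.18 (adjusted p = 0.000166), and Kdm4d embryos were higher than SCNT by 1.95 ± 0.18 (adjusted p = 1.79e-05). Both held in each of the 11 alternatives. The mutant was higher than SCNT by 0.90 ± 0.18 (adjusted p = 0.00759), which was lost with equal sums (0.53, adjusted p = 0.0701) and without SCNT 2-cell replicate 1 (0.83, adjusted p = 0.0655). Kdm4d exceeded the mutant by 1.05 ± 0.18 (adjusted p = 0.000807). In fits to the groups compared only, neither this call nor that of the mutant against SCNT was kept (adjusted p = 0.0736 and 0.167). Kdm4d embryos also exceeded IVF 2-cell embryos by 0.68 ± 0.18 (adjusted p = 0.0211), which was lost with equal sums (0.38, adjusted p = 0.242), under quantile normalization (0.39, adjusted p = 0.143) and without Kdm4d replicate 2 or either IVF 2-cell library (0.44 to 0.72, adjusted p = 0.0875 to 0.114).

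The level of H3f3a is uncertain, because 13.375% of its 50-base stretches also occur in other genes that do not overlap it (191 genes, 39 of them pseudogenes), and 19.39% in overlapping genes. For H3f3b the figures were 6.863% (3 genes) and 0%. How reads that fit several places were counted is not given here.

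Within the pair, H3f3a made up 6.31% ± 0.12 (SD, n = 2) of summed FPKM in donor cells. At the 1-cell stage its share was 1.63% ± 0.34 for IVF and 1.17% ± 0.04 for SCNT, and IVF 2-cell embryos had 2.11% ± 0.33. It made up 3.20% ± 0.19 in SCNT 2-cell embryos, 3.18% ± 0.94 with Kdm4d and 2.51% ± 1.11 with the mutant. H3f3b thus stood at 14.6 to 86.6 times H3f3a in single libraries. No test was made on these shares.

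Markers of the oocyte were also lowest in SCNT embryos at the 2-cell stage. Their summed level was 1184 to 1380 FPKM in SCNT and 1987 to 2040 in IVF libraries, 2366 to 3479 with Kdm4d and 2868 to 5902 with the mutant, with 12 of 12 markers at 1 FPKM in each. Cumulus markers summed to 56.95 to 60.31 FPKM in SCNT 2-cell and 84.99 to 87.73 in IVF 2-cell libraries (6 of 16 at 1 FPKM in each), to 118.5 to 172.5 with Kdm4d and to 66.23 to 93.8 with the mutant (3 of 16 in each), against 20320 to 26650 in donor cells. Immune markers summed to 34.93 to 45.45 FPKM in SCNT 2-cell libraries and 14.44 to 14.77 in IVF 2-cell libraries, 28.46 to 38.41 with Kdm4d and 40.83 to 52.82 with the mutant. Endothelial markers summed to at most 9.54 FPKM in any library, sperm markers to 13.1 and erythroid markers to 2.63, and oviduct markers to 68.96 to 78.24 in IVF and SCNT 2-cell libraries, 88.42 to 114.2 with Kdm4d and 67.42 to 82.74 with the mutant. The part of any of these in the results was not tested.

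**Figure D2:**
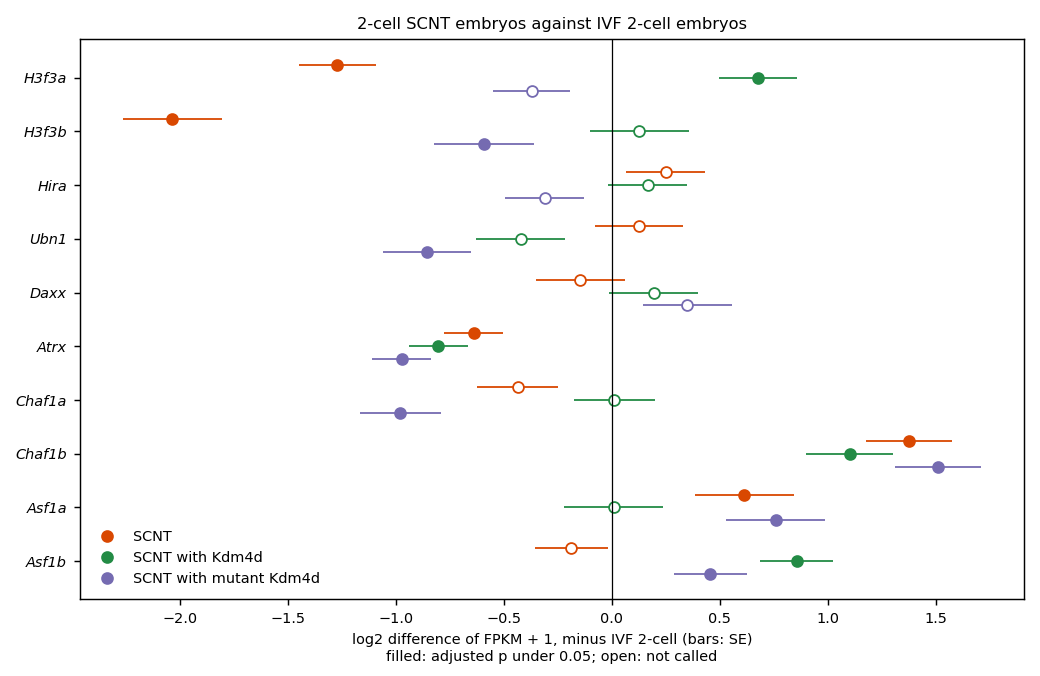
Log2 difference of FPKM + 1 from IVF 2-cell embryos (horizontal axis) for each gene, in SCNT embryos, with Kdm4d and with mutant Kdm4d. Points are group differences, bars 1 SE, filled points called. H3f3b sits at -2.03 in SCNT, 0.13 with Kdm4d and -0.59 with the mutant, whereas Chaf1b is above 1 in all 3.

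Of all 10 genes, 5 were called between SCNT and IVF 2-cell embryos, 2 higher and 3 lower, where 46.8% of all tested genes were called (30.2% higher and 16.5% lower). Kdm4d gave 3 higher and 0 lower against SCNT (39.4% of all genes called, 21% higher and 18.4% lower), the mutant 3 higher and 1 lower (17.3%, 11.1% and 6.28%), and Kdm4d against the mutant 3 higher and 1 lower (43.7%, 21.3% and 22.3%). Against IVF 2-cell embryos the counts were 3 and 1 for Kdm4d (20.2%, 16.6% and 3.61%) and 3 and 4 for the mutant (54.4%, 36.3% and 18.1%). The median log2 difference between SCNT and IVF 2-cell embryos was -0.17 over the 10 genes and 0.23 over all genes. Scaling moved that background: the median of all genes was 0.66 with equal sums and close to 0 with quantile normalization, and 64.6% of called genes were higher on FPKM, 81.3% with equal sums and 50.6% with quantile normalization. Against SCNT, 53.2% of the genes called with Kdm4d were higher on FPKM and 15.6% with equal sums, where their median was -0.62. For the mutant these shares were 63.8% and 16.9%. The counts for the 10 genes depended on the scale too. With equal sums Kdm4d gave 2 higher (H3f3a and H3f3b) and 5 lower (Hira, Atrx, Chaf1b, Asf1a and Ubn1), and under quantile normalization 2 higher and 4 lower. Over all tested genes Kdm4d gave 1072 higher and 5786 lower with equal sums, and 2309 and 2575 under quantile normalization. The mutant gave 1 higher (H3f3b) and 4 lower (Hira, Atrx, Chaf1a and Ubn1) with equal sums, and 2 higher and 4 lower under quantile normalization. The mutant's counts over all tested genes were 552 higher and 2707 lower with equal sums, and 1318 and 1389 under quantile normalization.

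The HIRA complex genes behaved unlike H3.3. Hira (chr16:18876843-18970401), the chaperone subunit that binds the complex's partners, was low in every group. It had 0.383 and 0.553 FPKM in IVF 1-cell libraries, 0.859 and 1.16 in SCNT 1-cell, 3.45 and 2.97 in IVF 2-cell, and 4.21 and 3.79 in SCNT 2-cell. Kdm4d libraries had 4.10 and 3.37 FPKM, mutant libraries 2.09 and 2.72, and donor cells 1.44 and 1.89. All 2-cell libraries were above all 1-cell libraries. The stage change was 1.52 ± 0.18 in IVF (adjusted p = 1.28e-05) and 1.32 ± 0.18 in SCNT embryos (adjusted p = 5.44e-05), and the difference between these was not called (-0.20, adjusted p = 0.596). In the annotation read here 42.017% of Hira stretches also lie in the overlapping gene Gm28539.

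Ubn1 (chr16:5050161-5086378) had 10.4 to 12.9 FPKM in the SCNT 2-cell libraries, 9.94 to 11.1 in IVF 2-cell, and 10.7 to 11.4 in 1-cell libraries. It stood at 7.37 and 7.83 FPKM with Kdm4d, at 4.04 and 7.04 with the mutant, and at 2.74 and 3.09 in donor cells. The mutant libraries were below both SCNT 2-cell libraries, at a log2 difference of -0.98 ± 0.21 (adjusted p = 0.00935), a call lost without SCNT 2-cell replicate 1 (-0.84, adjusted p = 0.0836). The call was also lost in a fit to the groups compared only (adjusted p = 0.199). With Kdm4d the difference was -0.55 (adjusted p = 0.0523), and with equal sums -1.27 (adjusted p = 0.00249).

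Daxx (chr17:34046390-34052535), which binds H3.3 itself, was the steadiest of the 10. It ranged from 3.05 to 6.84 FPKM over all 14 libraries, and 4 of 21 pairs of groups were called. Its stage change was -0.69 ± 0.21 in SCNT embryos (adjusted p = 0.0108), lost with equal sums (-0.05, adjusted p = 0.877), without SCNT 2-cell replicate 2 (-0.46, adjusted p = 0.111) and without SCNT 1-cell replicate 2 (-0.66, adjusted p = 0.0581). In IVF embryos it was -0.38 (adjusted p = 0.124).

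Atrx (chrX:102992956-103124711), the remodelling ATPase that works with DAXX, fell between the stages in both kinds of embryo on FPKM. With equal sums the fall was called in IVF embryos (-0.43, adjusted p = 0.032) but not in SCNT embryos (-0.27, adjusted p = 0.153). Atrx had 127 and 135 FPKM in IVF 1-cell libraries, 90.3 and 88.0 in SCNT 1-cell, 65.3 and 69.3 in IVF 2-cell, and 38.8 and 47.2 in SCNT 2-cell. Kdm4d libraries had 40.3 and 36.0 FPKM, mutant libraries 33.8 and 33.8, and donor cells 38.7 and 39.2. IVF libraries were above all others of their stage, with no overlap. SCNT embryos were lower by -0.64 ± 0.14 at the 2-cell stage (adjusted p = 0.00253), but not when sums were made equal (-0.28, adjusted p = 0.157) or under quantile normalization (-0.21, adjusted p = 0.318). Atrx lies on the X chromosome, and any part of embryo sex in its differences from IVF was not tested. Kdm4d embryos were lower than IVF by -0.80 ± 0.14 (adjusted p = 0.00228) and mutant embryos by -0.97 ± 0.14 (adjusted p = 0.000126). The Kdm4d call was lost in a fit to the groups compared only (adjusted p = 0.0734). Against plain SCNT neither was called on FPKM, at -0.16 with Kdm4d (95% interval -0.46 to 0.13, adjusted p = 0.374) and -0.33 with the mutant (95% interval -0.63 to -0.03, adjusted p = 0.115, libraries not overlapping). With equal sums both were called lower, at -0.86 and -0.80, and under quantile normalization too, at -0.80 and -0.66.

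Of the CAF-1 subunits, Chaf1a had the higher level at the 1-cell stage and in IVF and Kdm4d 2-cell embryos, and Chaf1b in mutant embryos and donor cells. In plain SCNT 2-cell embryos the levels were close. Chaf1a (chr17:56179839-56207449) had 18.5 and 17.6 FPKM in IVF 1-cell libraries, 24.1 and 23.9 in SCNT 1-cell, 22.6 and 18.4 in IVF 2-cell, and 16.3 and 13.4 in SCNT 2-cell. Kdm4d libraries had 20.3 and 20.8 FPKM, mutant libraries 8.05 and 12.02, and donor cells 0.622 and 0.758. Donor cells were far below every embryo library, and mutant libraries below every other embryo library. SCNT 2-cell embryos were not called against IVF (-0.44 ± 0.19, adjusted p = 0.0755). The mutant was lower than IVF by -0.98 ± 0.19 (adjusted p = 0.00103), and Kdm4d was higher than the mutant by 0.99 ± 0.19 (adjusted p = 0.00155). The latter call was lost in a fit to the groups compared only (adjusted p = 0.0881). In the annotation 49.666% of Chaf1a stretches also lie in the overlapping gene Ubxn6.

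Chaf1b (chr16:93884146-93906351) had 2.13 and 2.59 FPKM in IVF 1-cell libraries, 2.97 and 3.48 in SCNT 1-cell, 6.81 and 4.64 in IVF 2-cell, and 17.1 and 15.4 in SCNT 2-cell. Kdm4d libraries had 12.9 and 13.6 FPKM, mutant libraries 19.4 and 16.5, and donor cells 3.03 and 2.11. Every 2-cell SCNT library, with or without Kdm4d, lay above both IVF 2-cell libraries. The difference from IVF was 1.37 ± 0.20 in SCNT embryos (adjusted p = 0.000204, called under each of 11 alternatives), 1.10 ± 0.20 with Kdm4d (adjusted p = 0.00326) and 1.51 ± 0.20 with the mutant (adjusted p = 8.35e-05). The call with Kdm4d was lost in a fit to the groups compared only (adjusted p = 0.0688). Kdm4d against SCNT was not called (-0.27, adjusted p = 0.303), but was lower with equal sums (-0.98, adjusted p = 0.0032) and under quantile normalization (-0.62, adjusted p = 0.0282).

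As a share of the summed FPKM of both subunits, Chaf1a stood at 88.4% ± 1.8 for IVF and 88.2% ± 1.2 for SCNT at the 1-cell stage. At the 2-cell stage it was 78.3% ± 2.1 for IVF and 47.7% ± 1.7 for SCNT, 60.8% ± 0.5 with Kdm4d, 35.7% ± 9.1 with the mutant and 21.8% ± 6.6 in donor cells. Dividing a library by its sum leaves these shares as they are. The ranges of IVF 2-cell and of the SCNT groups did not overlap, and no test was made on the shares.

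**Figure D3:**
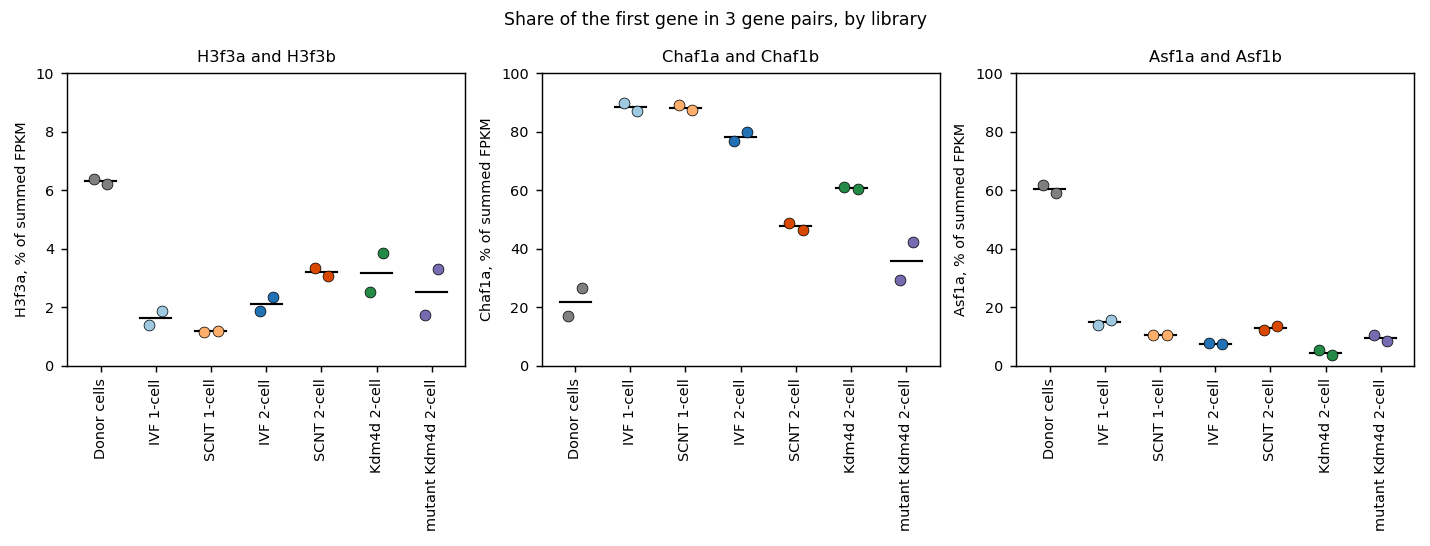
Share of the first gene in the summed FPKM of 3 pairs (%; the panels have their own vertical ranges) for each of the 7 groups. Points are libraries and bars the mean of 2. At the 2-cell stage Chaf1a stands at 78.3% for IVF and 47.7% for SCNT, and Asf1a at 60.4% in donor cells and 4.38% with Kdm4d.

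Asf1b (chr8:86479593-86494094), the form linked with dividing cells, was the most abundant of the 8 chaperone genes in all embryo libraries. It had 249 and 230.5 FPKM in IVF 1-cell libraries, 269 and 285 in SCNT 1-cell, 122 and 104 in IVF 2-cell, and 104 and 93.2 in SCNT 2-cell. Kdm4d libraries had 195 and 215 FPKM, mutant libraries 182 and 132, and donor cells 3.06 and 3.51. Donor cells were 84.5-fold below SCNT 1-cell embryos by mean FPKM. SCNT and IVF 2-cell libraries overlapped, at a difference of -0.19 (95% interval -0.56 to 0.18, adjusted p = 0.381), which turned to 0.40 under quantile normalization (adjusted p = 0.0372). Kdm4d embryos were higher than SCNT by 1.04 ± 0.17 (adjusted p = 0.00058) and than IVF by 0.86 ± 0.17 (adjusted p = 0.00485), the latter 0.74 without IVF 2-cell replicate 2 (adjusted p = 0.0599). In a fit to the groups compared only, the difference from IVF was not called (adjusted p = 0.0768). The difference from SCNT was lost with equal sums (0.35, adjusted p = 0.0633) and under quantile normalization (0.26, adjusted p = 0.166). The mutant differed from SCNT by 0.64 ± 0.17 (adjusted p = 0.0241), also lost with equal sums (0.18, adjusted p = 0.375) and without either SCNT 2-cell library or mutant replicate 1 (0.41 to 0.72, adjusted p = 0.0796 to 0.121).

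Asf1a (chr10:53316767-53329021) had 40.4 and 42.9 FPKM in IVF 1-cell libraries, 31.8 and 32.8 in SCNT 1-cell, 10.2 and 8.23 in IVF 2-cell, and 14.3 and 14.7 in SCNT 2-cell. Kdm4d libraries had 10.7 and 7.95 FPKM, mutant libraries 21.6 and 12.05, and donor cells 4.91 and 5.09. It was higher in SCNT than in IVF 2-cell embryos by 0.61 ± 0.23 (adjusted p = 0.0449). The call was lost without any single library of either group (adjusted p = 0.067 to 0.226). Kdm4d was lower than the mutant by -0.75 ± 0.23 (adjusted p = 0.0204), and without mutant replicate 1 the difference was -0.35 (adjusted p = 0.17), and without Kdm4d replicate 2 it was -0.56 (adjusted p = 0.134). Asf1a lies within Mcm9 on the genome (12255 bases of overlap, Mcm9 at most 3.88 FPKM) and the library kit does not mark strand, so reads of the 2 could be mixed.

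Asf1a made up 60.4% ± 1.7 of the summed FPKM of the pair in donor cells, and at the 1-cell stage 14.8% ± 1.2 for IVF and 10.4% ± 0.2 for SCNT. At the 2-cell stage it made up 7.52% ± 0.28 for IVF, 12.9% ± 1.1 for SCNT, 4.38% ± 1.15 with Kdm4d and 9.50% ± 1.59 with the mutant.

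Between the 1-cell and the 2-cell stage, 2 of the 10 genes rose and 3 fell in IVF embryos (67.5% of all genes called, 30.3% higher and 37.2% lower). Hira and Chaf1b rose, and Atrx, Asf1a and Asf1b fell, with log2 differences of -2.07 for Asf1a and -1.08 for Asf1b. In SCNT embryos 2 rose and 7 fell (66.8%, 35.4% and 31.4%), the additional ones being H3f3a, H3f3b, Daxx and Chaf1a. H3f3b changed by -2.37 ± 0.23 in SCNT embryos (adjusted p = 3.11e-06), and in IVF embryos its difference was -0.26 (adjusted p = 0.343), or 0.68 under quantile normalization (adjusted p = 0.00247). With equal sums the SCNT calls of H3f3a (-0.11), Daxx (-0.05), Atrx (-0.27), Chaf1a (0.087, the other sign) and Asf1a (-0.37) were lost, and 75.1% of all called genes were higher, against 52.9% on FPKM.

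The stage change itself differed between SCNT and IVF embryos for 5 of the 10 genes, 2 higher and 3 lower in SCNT (28.9% of all genes called, 16.4% higher and 12.5% lower). For H3f3b the difference of the changes was -2.11 ± 0.33 (adjusted p = 0.000827), called under each of 15 alternatives at -2.25 to -1.86. For H3f3a it was -0.90 ± 0.25 (adjusted p = 0.0195), for Chaf1a -0.83 ± 0.27 (adjusted p = 0.0359), for Chaf1b 1.04 ± 0.28 (adjusted p = 0.0166) and for Asf1a 0.97 ± 0.32 (adjusted p = 0.0422). The last 4 were called under 10, 5, 11 and 5 of the 15 alternatives. Leaving out 1 library ended the call in 4 of 8 cases for H3f3a, 6 for Chaf1a, 4 for Chaf1b and 8 for Asf1a, with the direction kept. The oocyte markers summed to 12080 to 12450 FPKM in IVF 1-cell and 10050 to 10550 in SCNT 1-cell libraries.

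**Figure D4:**
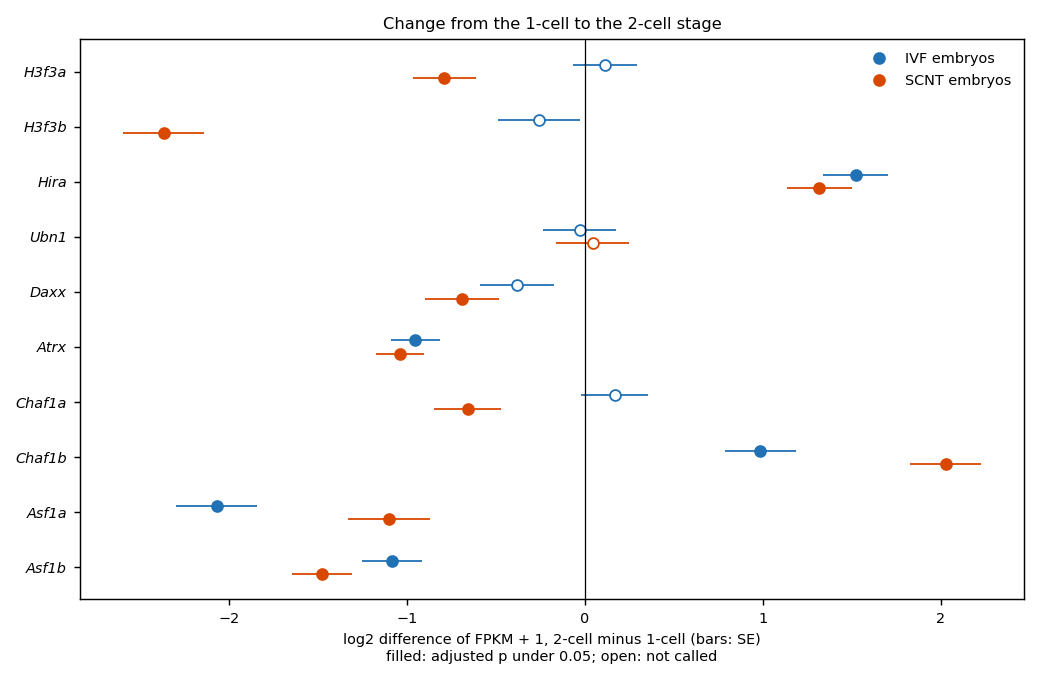
Log2 difference of FPKM + 1 between the 2-cell and the 1-cell stage for each gene in IVF and SCNT embryos. Bars are 1 SE and filled points were called. H3f3b lies at -0.26 in IVF (0.68 under quantile normalization) and -2.37 in SCNT embryos, and Hira at 1.52 and 1.32.

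At the 1-cell stage none of the 10 genes was called between SCNT and IVF embryos by limma (2.13% of all genes called, 1.24% higher and 0.892% lower). At an unadjusted p under 0.05 there were 2 of 10 (15.2% of all tested genes), Hira at 0.45 (95% interval 0.05 to 0.85, adjusted p = 0.259) and Atrx at -0.55 (95% interval -0.85 to -0.25, adjusted p = 0.0626). For H3f3b the interval was -0.43 to 0.58. The libraries of 9 of the 10 genes did not overlap, as was so for 66.2% of all tested genes. Atrx was called with a pseudocount of 0.1 (-0.56, adjusted p = 0.0389; 5.52% of all genes called). A fit of these groups alone called 3 of the 10 (23.8% of all genes), and group weights 5 (30.3%). Cumulus markers summed to 62.31 to 83.62 FPKM in SCNT 1-cell and 9.167 to 10.88 in IVF 1-cell libraries (7 and 1 of 16 at 1 FPKM, with Cyp11a1, Inhba, Amh and Foxl2 listed at 0 in both IVF libraries). Their part in these values was not tested.

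Against IVF 1-cell embryos, donor cells had 1 of the 10 genes higher and 6 lower (78% of all genes called, 42.4% higher and 35.5% lower). The lower ones were Asf1b, Chaf1a, Asf1a, H3f3b, Atrx and Ubn1. Asf1b stood 73.1-fold lower by mean FPKM, Chaf1a 26.2-fold and Asf1a 8.33-fold. Against donor cells, SCNT 2-cell embryos had 6 higher and 2 lower (73%, 38.9% and 34.1%). The lower ones were H3f3a (-1.30, adjusted p = 3.6e-05) and Daxx (-0.49, adjusted p = 0.0478). The Daxx call was lost with equal sums (-0.12, adjusted p = 0.702), without SCNT 2-cell replicate 2 (-0.26, adjusted p = 0.338) and without donor replicate 1 or 2 (adjusted p = 0.135 and 0.122). H3f3b differed by -0.42 (95% interval -0.92 to 0.09, adjusted p = 0.123), by 0.07 with equal sums (adjusted p = 0.762) and by 0.23 under quantile normalization (adjusted p = 0.213).

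Ordered by mean FPKM over the 7 groups, 14 of 60 neighbouring steps were called, beside 20.5% of such steps over all tested genes. H3f3a ran from Kdm4d (24.2 FPKM) through donor cells, IVF 2-cell, IVF 1-cell, mutant and SCNT 1-cell to SCNT 2-cell embryos (5.46), and only the first and last steps were called. H3f3b ran from SCNT 1-cell (858 FPKM) through IVF 1-cell, Kdm4d, IVF 2-cell, mutant and donor cells to SCNT 2-cell embryos (166), with the steps on either side of the mutant called. No step was called for Hira or Daxx. Chaf1a and Ubn1 had 1 called step each, down to donor cells, Asf1b had 2 (to IVF 2-cell and to donor cells), Asf1a 2 (SCNT 1-cell to mutant, and IVF 2-cell to donor cells), Atrx 2 (SCNT 1-cell to IVF 2-cell to SCNT 2-cell) and Chaf1b 2 (Kdm4d to IVF 2-cell to SCNT 1-cell).

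Other genes of histone supply and assembly gave a wider view. Of 10 further partners of H3.3 deposition, 0 were higher and 4 lower in SCNT than in IVF 2-cell embryos, with a median of -0.45 beside 0.23 over all genes, of which 30.2% were higher and 16.5% lower; with equal sums 2 were higher and 2 lower. Setdb1, a histone H3 lysine 9 methyltransferase, had 3.27 ± 0.58 (SD) against 7.74 ± 0.54 FPKM (-1.04 ± 0.18 SE, adjusted p = 0.000654). With Kdm4d, 2 of the 10 were higher and 1 lower than in SCNT (21% and 18.4% of all genes), Setdb1 by 0.85 ± 0.18 (adjusted p = 0.00295). With equal sums these counts became 0 and 6. All tested genes then gave 1072 higher and 5786 lower for Kdm4d against SCNT, and 6109 and 1402 for SCNT against IVF 2-cell embryos. The direction with Kdm4d thus depends on the scale, for this list and for all genes.

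Of 19 H3-H4 assembly and transfer factors, 3 were higher and 10 lower in SCNT than in IVF 2-cell embryos (30.2% and 16.5% of all genes; median -0.51). Nasp, which holds free H3-H4, had 117 ± 12 against 289 ± 23 FPKM (-1.30 ± 0.17, adjusted p = 0.000115). Rbbp7, which binds H4 and works in several complexes, had 54.1 ± 3.3 against 127 ± 5 FPKM (-1.22 ± 0.16, adjusted p = 0.000104). The higher ones included Hat1, an acetyltransferase of new H4 (0.88 ± 0.18, adjusted p = 0.00215). With Kdm4d 10 were higher and 1 lower than in SCNT (21% and 18.4% of all genes; median 0.58), Rbbp7 by 1.29 ± 0.16 (adjusted p = 0.000108), and with the mutant 2 were higher and 3 lower (11.1% and 6.28% of all genes). With equal sums the lower count against IVF was 4, and the higher count with Kdm4d was 1. Over all tested genes the same counts were 1402 and 1072, beside 2225 and 2820 on FPKM. Against the mutant, Kdm4d had 9 higher and 0 lower (21.3% and 22.3% of all genes), Nasp by 1.51 ± 0.17 (adjusted p = 7.93e-05).

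Of 7 CENP-A deposition genes, 0 were higher and 2 lower in SCNT than in IVF 2-cell embryos (30.2% and 16.5% of all genes), and 4 were higher and 0 lower with Kdm4d than in SCNT (21% and 18.4%). Oip5, a licensing factor of the centromere, was higher by 2.96 ± 0.40 (adjusted p = 0.000191) and Cenpa, the centromeric H3 variant, by 1.38 ± 0.26 (adjusted p = 0.00151). The mutant also gave 4 higher and 0 lower (11.1% and 6.28% of all genes). Of 17 general and H2A-H2B chaperones, 3 were higher and 4 lower in SCNT than in IVF embryos, and 6 higher and 2 lower with Kdm4d than in SCNT, beside the same shares of all genes as for the CENP-A list. Set, an inhibitor of histone acetylation, differed by -0.84 ± 0.19 between SCNT and IVF embryos (adjusted p = 0.00378), and 29.3% of its 50-base stretches also occur in genes elsewhere. With equal sums these 17 genes gave 6 higher and 0 lower in SCNT than in IVF embryos, and 1 higher and 9 lower with Kdm4d, so their direction depends on the scale. The CENP-A counts likewise became 2 and 0, and 1 and 2. Over all tested genes the counts with equal sums were 6109 higher and 1402 lower for SCNT against IVF, and 1072 and 5786 with Kdm4d.

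Of 20 E2F-regulated S-phase genes, 3 were higher and 9 lower in SCNT than in IVF 2-cell embryos (30.2% and 16.5% of all genes; median -0.23). With Kdm4d 10 were higher and 3 lower than in SCNT (21% and 18.4% of all genes; median 0.42). Gins2, a subunit of the replicative helicase, had 11.9 ± 0.6 FPKM in SCNT and 59.2 ± 0.9 in IVF 2-cell embryos (-2.22 ± 0.13, adjusted p = 4.21e-07), and 68.8 ± 2.2 with Kdm4d (2.43 ± 0.13 against SCNT, adjusted p = 1.03e-06). In the annotation 65.435% of Gins2 stretches also lie in the overlapping gene Gse1. With equal sums the counts for the 20 genes were 6 higher and 7 lower in both comparisons. All tested genes then gave 6109 higher and 1402 lower for SCNT against IVF 2-cell embryos, but 1072 and 5786 for Kdm4d against SCNT. Rfc4, a clamp loader subunit, was higher in SCNT instead (25.9 ± 0.2 against 4.55 ± 0.01 FPKM, 2.28 ± 0.24, adjusted p = 2.12e-05). Of the 12 replication-dependent H3 genes in the table, 1 was tested, Hist2h3c1, at no more than 1.41 FPKM, and near-identical copies make these values uncertain. Whether the library method captures these messenger RNAs was not tested. The low values thus do not show that these genes were silent or below the H3.3 genes.

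The genes whose 7 group means of log2(FPKM + 1) were most like those of H3f3b, among 8950 genes at 5 FPKM or more in a group, were Med10 (r = 0.9737) and Pfdn2 (r = 0.9725). At the 2-cell stage Med10 had 437 ± 23 FPKM for IVF, 186 ± 2 for SCNT, 493 ± 26 with Kdm4d and 295 ± 46 with the mutant. For H3f3a they were Taf6 (r = 0.9347) and Gm561 (r = 0.9197). Taf6 had 16.2 ± 2.5, 3.90 ± 0.78, 27.1 ± 6.3 and 6.43 ± 1.96 FPKM in the same groups. These r are over 7 group means of the same libraries and describe likeness only. In the annotation 88.729% of Med10 stretches also lie in the overlapping gene Gm26819. For Pfdn2 25.142% lie in overlapping Klhdc9, and for Taf6 21.399% in overlapping Ap4m1.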

How the data were processed

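RNA from pools of embryos or cells was amplified with a SMARTer Ultra Low Input kit and sequenced as single 50-base reads, per the labels' protocols. The authors deposited FPKM values per gene, and the submitters' processing notes name Novoalign, Cufflinks 2.0.2 and build mm9. Gene starts in the table count from 0, so 1 was added to the positions printed; RefSeq sequences are of another build and were not mixed with them. Rows of short RNAs (807 of 23697) were left out and 630 rows sharing a symbol were summed, giving 22490 symbols. From the deposited FPKM, log2(FPKM + 1) was computed and fitted with limma 3.58.1 in R 4.3.3 on all 7 group means (trended, robust variances, 7 residual degrees of freedom), for 13451 genes at 1 FPKM or more in at least 2 libraries. Fold changes on this scale understate those of low genes. The fitting code was tested on simulated data in which each gene had the same spread in all groups. That test does not cover groups of unequal spread, as found here. Named genes are the 10 genes, up to 2 called list members with the largest rise and 2 with the largest fall among those at 5 FPKM or more, and the 2 genes most like each H3.3 gene. The genes and lists were chosen with earlier results of these data known. Alternatives were a pseudocount of 0.1, no filter, equal sums, quantile normalization, a replicate block, group weights, a fit to the groups compared only and leaving out each library; applying them to the lists was decided after seeing the data. No depth in reads is given, so no counting interval was computed.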

Additional observations from a re-analysis of the deposited data

Results flagged for a closer look

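The change from the 1-cell to the 2-cell stage differed between SCNT and IVF embryos by an interaction term in limma for 5 genes. The difference of the log2 changes was -0.90 for H3f3a, -2.11 for H3f3b, -0.83 for Chaf1a, 1.04 for Chaf1b and 0.97 for Asf1a. SCNT and IVF embryos also differ in oocyte strain, and the effects of strain and method cannot be told apart.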

How the results depend on the processing

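Of 120 values for the 10 genes, 61 were called; equal sums kept 47, turned 1 and added 14, quantile normalization kept 53, and a fit to the groups compared only kept 44. Values that turned were H3f3b between IVF stages (0.68 under quantile normalization), Chaf1a between SCNT stages (0.087 with equal sums) and Asf1b between SCNT and IVF 2-cell embryos (0.40 under quantile normalization); the cause was not tested. Counts of called genes moved as follows. SCNT against IVF at the 1-cell stage gave 1 with a pseudocount of 0.1, 5 with group weights and 3 in a fit to its own groups. SCNT stages gave 5 with equal sums. The difference of stage changes gave 3 without the filter, 3 with equal sums, 3 under quantile normalization and 2 to 3 leaving out a library. Kdm4d against SCNT gave 7 with equal sums and 6 under quantile normalization. The mutant against SCNT gave 2 with group weights, 0 in its own fit and 1 to 6 leaving out a library (1 without SCNT 2-cell replicate 1). Kdm4d against the mutant gave 2, 0 and 2 to 5 (2 without Kdm4d replicate 2). Against IVF 2-cell embryos, Kdm4d gave 0 in its own fit and 2 to 4 leaving out a library (2 without IVF 2-cell replicate 2), and the mutant gave 3 and 4 to 6 (4 without IVF 2-cell replicate 2). Correlations of deviations by replicate number ran from -0.249 to 0.302 over 21 pairs of groups, with a median of -0.02 and 2 pairs over 0.1. Most pairs of groups thus gave no sign that replicate numbers pair the libraries. A replicate block kept all 61 calls and added Asf1a for Kdm4d against SCNT (-0.60, adjusted p = 0.0487). With 2 libraries a group and no read counts, small differences in low genes such as Hira could not be resolved.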
